A study of Homo sapiens with 8 samples.

Results

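Transcripts of the metallothionein genes MT1E, MT1F, MT1G, MT1M, MT1X and MT2A and of their regulator MTF1 were followed in MCF10A cells, a non-malignant, spontaneously immortalized human mammary epithelial cell line. The 7 genes were chosen by name, with earlier results of these data known. All 7 are among the 25369 gene symbols of the RNA-seq table. The cells had been encapsulated for 7 days in 4 hydrogels, with 2 libraries per gel from independent trials. Soft IPNs were interpenetrating networks of reconstituted basement membrane (rBM) and alginate, and stiff IPNs were the same networks crosslinked with calcium. Soft col:rBM gels held type I collagen and rBM, while stiff col gels held dense type I collagen. That stiff col gels lacked rBM was taken from their name. Stiff col thus differed from stiff IPN in collagen, alginate, calcium and, by name, rBM at once. According to the study's methods, the medium used for MCF10A cells held hydrocortisone, a glucocorticoid, and EGF, insulin, cholera toxin and horse serum, and the gels were broken up in EDTA, a metal chelator, after freezing. All 8 libraries are of 1 cell line, and no library without a gel was analysed here.

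Metallothioneins are small cysteine-rich proteins that bind zinc and copper ions and buffer cells against free metal. MTF1 is a zinc-sensing transcription factor that binds metal response elements in the promoters of metallothionein genes and of SLC30A1, a zinc exporter. Metallothionein genes are also known to respond to glucocorticoids and to oxidative stress.

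The metal response element was the sequence feature looked for, because it links MTF1 to its target genes. Promoters of 300 bases, with 250 bases before and 50 after the annotated start, were taken from RefSeq (GRCh38.p14). They were found for 3 of the 7 members (MT2A, MT1X and MTF1) and for 6 of the 17 metallothionein genes, pseudogenes and MTF1 in the table. The element's core was searched as TGCACNC and TGCGCNC on both strands, and no matches overlapped each other within the promoters described here. The 250 bases before the start are shown 5′ to 3′ for the most abundant member MT2A, for MT1X, and for MT1H, a gene of the same cluster listed at 0 in all 8 libraries. Matches are in capitals, and a match on the opposite strand reads as the reverse complement of the core. The stretches lie on the plus strand at chr16:56608334-56608583 (MT2A), chr16:56682220-56682469 (MT1X) and chr16:56669564-56669813 (MT1H).
MT2A: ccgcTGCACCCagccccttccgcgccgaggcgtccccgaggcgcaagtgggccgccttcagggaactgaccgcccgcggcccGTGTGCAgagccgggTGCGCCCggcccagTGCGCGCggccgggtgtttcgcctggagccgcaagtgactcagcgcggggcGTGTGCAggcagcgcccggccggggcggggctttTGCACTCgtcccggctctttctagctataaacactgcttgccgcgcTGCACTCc
MT1X: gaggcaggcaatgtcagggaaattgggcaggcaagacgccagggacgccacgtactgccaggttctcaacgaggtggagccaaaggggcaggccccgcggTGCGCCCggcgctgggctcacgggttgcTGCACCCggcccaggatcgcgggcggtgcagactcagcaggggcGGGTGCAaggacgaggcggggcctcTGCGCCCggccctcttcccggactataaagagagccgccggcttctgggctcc
MT1H: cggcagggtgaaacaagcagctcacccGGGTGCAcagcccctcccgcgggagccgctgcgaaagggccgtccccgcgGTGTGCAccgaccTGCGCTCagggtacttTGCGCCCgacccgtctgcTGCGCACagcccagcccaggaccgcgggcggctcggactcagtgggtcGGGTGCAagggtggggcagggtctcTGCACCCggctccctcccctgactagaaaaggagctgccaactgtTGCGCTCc

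The whole 300-base promoter of MT2A held 8 matches, 7 of them before the start. MT1X held 4 matches and MT1H held 8, all before the start. At least 1 match was present in 29.6% of the 35116 promoters in the table, at least 4 in 0.601% and at least 8 in 0.0199%. MTF1 itself held 0 matches of these letters in its window, and SLC30A1 held 2. Thus MT2A and MT1H had the same number of matches, although MT2A was among the most abundant transcripts and MT1H was listed at 0. A match is a description of the letters and was not tested as a binding site.

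**Figure D1:**
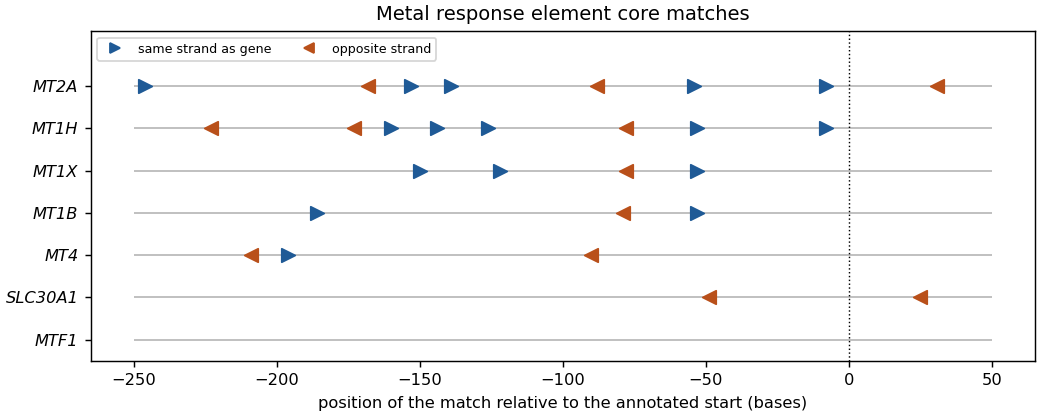
Positions of metal response element core matches in the 300-base RefSeq promoters of 6 genes with a match and of MTF1, in bases from the annotated start (dotted line). Arrowheads show the strand of each match, and the promoters of MT2A and MT1H carry 8 matches each while that of MTF1 carries 0.

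The values are normalized counts, which are read counts that the authors scaled between libraries and rounded. By estimate, between 13065615 and 18583116 reads fell on genes per library, from a scaling factor inferred for each library from the values. On that estimate 3 reads, taken as the limit of detection, corresponded to 2.41 to 3.72 normalized counts. These limits cover counting error only. The paper describes paired-end libraries and gives a larger number of filtered reads per library. A read in this estimate may therefore stand for a read pair, which was not settled. Basal mammary epithelial markers were high in all libraries, with a median of 22154 normalized counts for KRT5 and 949 for TP63. The 8 basal markers summed to between 95514 and 161814 normalized counts per library. Among the 8 luminal markers KRT8 and KRT18 were high, and CDH1 had 1283 to 5620 normalized counts. EPCAM had 102 to 434 and GATA3 141 to 184, while ESR1 reached at most 15, KRT19 at most 6 and PGR at most 1. Of other cell types, the 6 fibroblast markers summed to 775 to 1468, mostly DCN. COL1A1 had 168 to 333, with LUM at most 1 and COL1A2 at 0. The 4 leukocyte markers summed to 518 to 5169, mostly CD68, with CD14 at 89 to 412 and PTPRC at 0. The 4 endothelial markers summed to 39 to 270, with KDR at 22 to 267 and VWF at most 2. The library of stiff IPN replicate 2 lay farthest from the others on the first principal component (47.4% of the variance).

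Of the 7 members, 5 had 10 or more normalized counts in 2 or more libraries and were tested, namely MT2A, MT1E, MT1X, MT1F and MTF1. MT1G, an inducible member of the family, was listed at 1 in stiff IPN replicate 1 and in stiff col replicate 2 and at 0 in the other libraries, which is below the limit of detection. MT1M was listed at 0 in all 8 libraries. No difference between gels could be read for these 2 genes at this depth. The 6 metallothionein members lie in a cluster on chromosome 16, and MTF1 lies on chromosome 1 at 38275246-38325264 (hg19, minus strand). In that cluster MT2A spans 56642496-56643409, MT1E 56659387-56661024, MT1F 56691643-56694610 and MT1X 56716382-56718108 on the plus strand of hg19. MT1M spans 56666571-56667893 on the same strand, and MT1G spans 56700642-56701977 on the minus strand. Reads over exons of the whole gene were counted, so the position of the signal within a gene is not known.

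Along this cluster, expressed genes and genes listed at 0 were interspersed. From MT4, 43.5 kb before MT2A, to MT1X at 117.4 kb, the members MT2A, MT1E, MT1F and MT1X were above the limit of detection in every library. The pseudogene MT1L, between MT2A and MT1E, was listed at 5 to 34 normalized counts. MT1A, MT1H, MT1IP, MT1JP and MT4 were listed at 0 in all 8 libraries, as was MT1HL1 on chromosome 1. MT1B, MT3 and MT1DP reached at most 1, 1 and 2 normalized counts.

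Metallothionein genes resemble each other, and reads mapping to several places had been removed by the authors. Of all stretches of 50 bases in the main transcript of each gene, 51.0% of those in MT1X also occurred in transcripts of other annotated genes. The same share was 11.1% in MT2A, 10.3% in MT1E, 6.12% in MT1F, 19.9% in MT1G, 14.6% in MT1M and 0.647% in MTF1. Of the 181 shared stretches of MT1X, 117 occurred in the annotated record ENSG00000259827 and 47 in MT1G. For MT1L all 137 stretches also occurred in the annotated record ENSG00000291105. The paper describes paired-end reads, and these shares do not take the second read of a pair into account. Whether these records overlap MT1X and MT1L on the genome was not examined either, so how far sharing affects the values is uncertain. The annotation used for counting and whether strand was used were not given in the sources used here, so reads of overlapping or antisense genes cannot be told apart from those of the members.

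**Figure D2:**
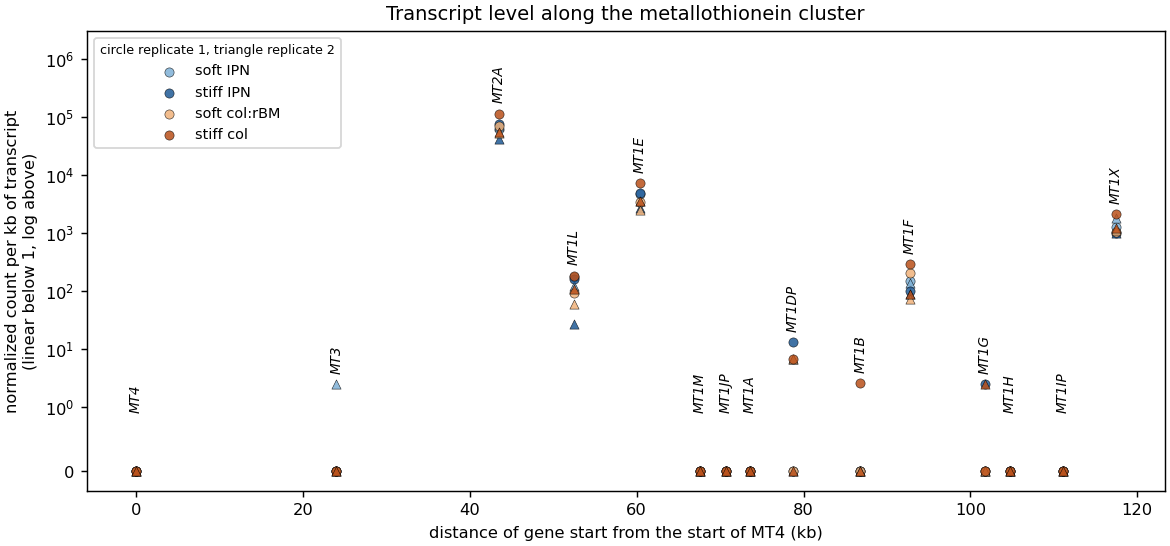
Normalized count per kilobase of transcript (symlog axis, linear below 1) of 15 metallothionein genes and pseudogenes on chromosome 16 in 8 libraries, plotted against the distance of each gene's start from that of MT4 in kb. MT2A, MT1E, MT1X and MT1F lie above 50 in every library, whereas MT1M, MT1A, MT1H, MT1JP, MT1IP and MT4 lie at 0.

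Per kilobase of main transcript, the order of the levels was MT2A, MT1E, MT1X and MT1F in all 8 libraries. The mean over the 8 libraries was 67800 normalized counts per kilobase for MT2A, 4090 for MT1E, 1320 for MT1X and 141 for MT1F. For MTF1, the regulator, it was 51.9. MT2A ranked between 6 and 28 among the 23010 genes with a transcript length, and MT1E between 171 and 391. The level of MT2A per kilobase was 12.9 to 20.8 times that of MT1E, depending on the library. Of all normalized counts on the metallothionein genes and pseudogenes, MT2A held 85.6% to 90.1%, MT1E 8.01% to 12.3%, MT1X 1.17% to 2.26% and MT1F 0.122% to 0.272%. MT2A thus held most of the family in each library, while the shares of MT1X and MT1F varied more in proportion.

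The summed metallothionein level was 28947 and 31906 normalized counts in soft IPN, 34540 and 19072 in stiff IPN, 31578 and 23283 in soft col:rBM, and 51915 and 25673 in stiff col (replicates 1 and 2). The means were 30426 ± 2090 in soft IPN, 26806 ± 10900 in stiff IPN, 27430 ± 5870 in soft col:rBM and 38794 ± 18600 in stiff col (SD, n = 2). These sums made up 0.133% to 0.299% of each library. The ranges of the 4 gels overlapped, and the highest sum, in stiff col replicate 1, was followed by that of stiff IPN replicate 1. In bulk RNA, more cells with a transcript and more of it per cell cannot be told apart.

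MT2A, the most abundant member, had 24773 and 28419 normalized counts in soft IPN, 30385 and 16592 in stiff IPN, 28456 and 20912 in soft col:rBM, and 45579 and 22455 in stiff col. Its highest library was stiff col replicate 1, but stiff col replicate 2 lay below both soft IPN libraries. MT1E had 3559 and 2683 in soft IPN, 3675 and 2031 in stiff IPN, 2596 and 1866 in soft col:rBM, and 5329 and 2664 in stiff col. Both stiff col libraries of MT1E lay above both soft col:rBM libraries, with a narrow gap between 2664 and 2596. MT1X had 520 and 720 in soft IPN, 405 and 407 in stiff IPN, 423 and 462 in soft col:rBM, and 846 and 496 in stiff col. For MT1X all soft IPN and stiff col libraries lay above all stiff IPN and soft col:rBM libraries. MT1F, the lowest of the 4, had 62 and 59 in soft IPN, 42 and 37 in stiff IPN, 86 and 31 in soft col:rBM, and 125 and 37 in stiff col. Its spread within collagen gels was wider than any difference between gels. MTF1 had 355 and 400 in soft IPN, 394 and 518 in stiff IPN, 360 and 402 in soft col:rBM, and 426 and 443 in stiff col, so that it varied less than the metallothionein genes.

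**Figure D3:**
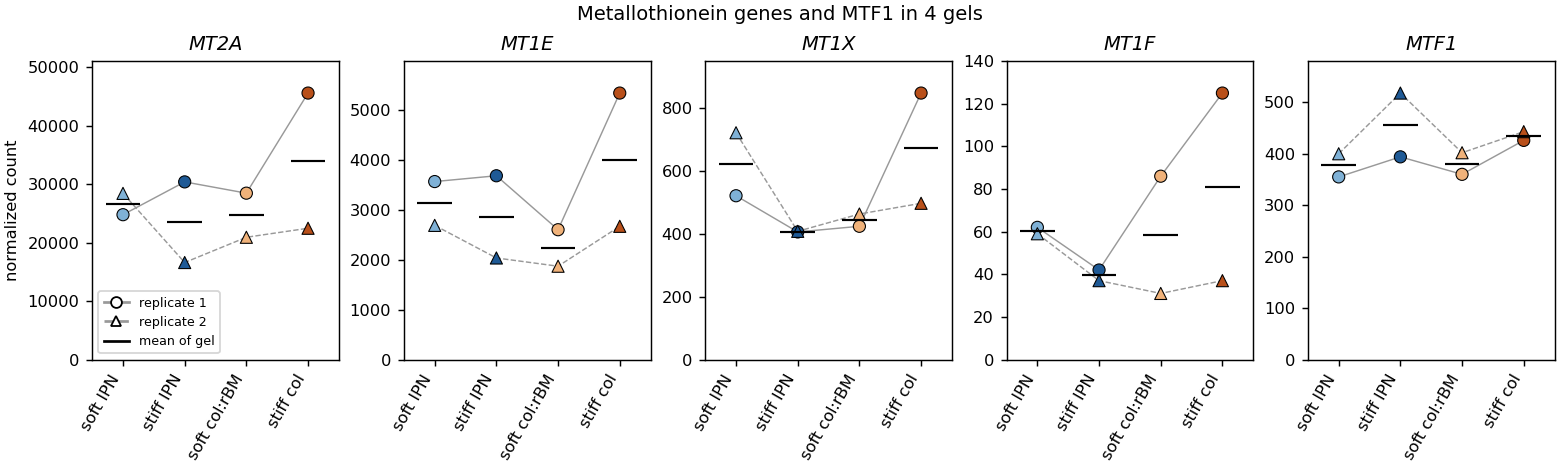
Normalized counts of the 5 tested members in 4 gels, with replicate 1 as circles, replicate 2 as triangles and the mean of each gel as a bar. MT2A, MT1E, MT1X and MT1F are highest in stiff col replicate 1, whereas MTF1 is highest in stiff IPN replicate 2.

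By mean log2 level, stiff col ranked first and soft IPN next for all 4 metallothionein genes, with soft col:rBM and stiff IPN behind them. For MT1E soft col:rBM was last, and for MT1F, MT1X and MT2A stiff IPN was last. Neighbouring gels in this order had overlapping libraries for MT1E, MT1F and MT2A. For MT1X soft IPN lay above soft col:rBM and soft col:rBM above stiff IPN without overlap, while stiff col and soft IPN overlapped. MTF1 followed another order, with stiff IPN first and stiff col next, then soft col:rBM and soft IPN.

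The gels were compared on log2(normalized count + 1) with limma, with Benjamini-Hochberg adjusted p values over the 13369 genes that entered the fit and a threshold of 0.05. No member was called in any comparison, and 0.0% of all genes were called in each. At an unadjusted p under 0.05, limma had 1245 genes for stiff IPN and soft IPN, 838 for stiff col and stiff IPN, 140 for stiff col and soft col:rBM and 190 for soft col:rBM and soft IPN. The labels give replicate numbers, and libraries with the same number varied together. Across genes, the differences between replicates correlated less in pairs of gels with stiff IPN (r = 0.28 to 0.4) than in the other pairs (0.65 to 0.82). A fit with the replicate number as a block, taken to stand for the trial, was also made. With the block 3.82% of genes were called for stiff IPN and soft IPN, 2.47% for stiff col and stiff IPN, 0.0% for stiff col and soft col:rBM, and 0.0224% for soft col:rBM and soft IPN. No member was called with the block in any of these. At an unadjusted p under 0.05, 0 of the 5 members passed without the block in each of the 4 pairwise comparisons, and with it 0, 2, 1 and 1 passed in the order given. Over all genes the shares with the block were 24.7%, 18.9%, 3.72% and 4.76%. A test of any difference among the 4 gels called 0.0% of genes without the block and 1.58% with it, and again no member, with adjusted p values of 0.146 to 0.643 with the block.

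Between stiff IPN and soft IPN, the comparison of calcium crosslinking at a fixed rBM content, all 4 metallothionein genes had values below 0 for the difference. The log2 difference was -0.59 ± 0.29 (SE) for MT1X with an interval of -1.27 to 0.09, -0.60 ± 0.66 for MT1F, -0.24 ± 0.42 for MT2A and -0.18 ± 0.41 for MT1E. Adjusted p values were between 0.557 and 0.913. For MTF1 the difference was 0.26 ± 0.21 (adjusted p = 0.708). For 2 of the 5 tested members, MT1F and MT1X, the 2 gels had no overlap, which held for 41.9% of all genes tested. Within trial 1 MT2A stood 0.29 higher in stiff IPN and within trial 2 it stood at -0.78, and without stiff IPN replicate 2 its difference was 0.20. The median log2 difference over the 5 tested members was -0.24, beside -0.01 over all genes.

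Between stiff col and soft col:rBM, which both hold collagen, all 5 tested members had values above 0. These gels differ in stiffness, collagen density and, by name, rBM at once, and the parts of these cannot be told apart. The log2 difference was 0.78 ± 0.41 for MT1E with an interval of -0.19 to 1.74, 0.55 ± 0.29 for MT1X, 0.39 ± 0.42 for MT2A, 0.39 ± 0.66 for MT1F and 0.19 ± 0.21 for MTF1. All had an adjusted p of 1. All 5 were higher in stiff col within both trials, as were 30.8% of all genes. The values within trials 1 and 2 were 1.04 and 0.51 for MT1E, 1.0 and 0.10 for MT1X, 0.68 and 0.10 for MT2A, and 0.53 and 0.25 for MT1F. MT1E, MT1X and MTF1 had no overlap between these gels, which was the case for 19.0% of all genes. The median over the 5 members was 0.39, and over all genes it was 0.00. Without stiff col replicate 1 the differences were 0.28 for MT1E, 0.17 for MT1X, -0.12 for MT2A and -0.47 for MT1F.

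MT1E was called in 1 of the alternatives for this comparison. With the replicate block its difference had a narrower interval of 0.37 to 1.19 and an adjusted p of 0.682. When the 4 collagen libraries were fitted alone with the replicate block, an alternative chosen after seeing the data, MT1E was higher in stiff col by 0.78 ± 0.12 with an adjusted p of 0.0063. That fit called 7.07% of all genes, whereas the same block over all 8 libraries called 0.0%. Over the alternatives the adjusted p of MT1E ranged from 0.0063 to 1. No other member passed the threshold in that fit, with adjusted p values of 0.261 for MT2A, 0.281 for MTF1, 0.300 for MT1F and 0.355 for MT1X.

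**Figure D4:**
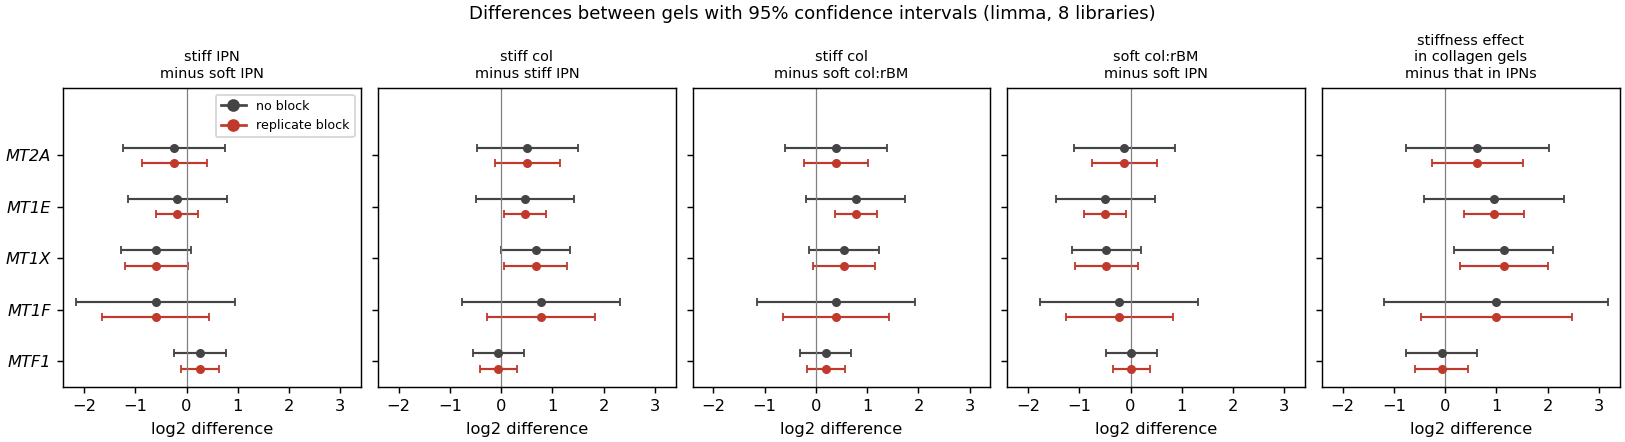
Log2 differences of the 5 tested members in 5 comparisons with 95% confidence intervals from limma over 8 libraries, without the block (dark) and with the replicate block (red). The last panel is the difference between the collagen gels minus that between the IPNs, where MT1X has the only interval apart from 0 without the block, 0.18 to 2.10.

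Between stiff col and stiff IPN, both stiff but of different matrix, the 4 metallothionein genes had values above 0. The log2 difference was 0.67 ± 0.29 for MT1X with an interval of -0.01 to 1.35, 0.78 ± 0.66 for MT1F, 0.51 ± 0.42 for MT2A and 0.46 ± 0.41 for MT1E. Adjusted p values were 0.785 to 0.883, and MTF1 stood at -0.06 ± 0.21 (adjusted p = 0.973). The libraries did not overlap for 1 of the 5 members, MT1X, beside 30.9% of all genes. Without stiff col replicate 1 the difference was 0.29 for MT1X, 0.00 for MT2A, -0.04 for MT1E and -0.09 for MT1F.

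Between soft col:rBM and soft IPN the 4 metallothionein genes had values below 0, at -0.49 ± 0.41 for MT1E, -0.47 ± 0.29 for MT1X, -0.22 ± 0.66 for MT1F and -0.12 ± 0.42 for MT2A. MTF1 stood at 0.01 ± 0.21, and all 5 had an adjusted p of 1. MT1E and MT1X did not overlap between these gels, beside 20.7% of all genes. Both were lower in soft col:rBM within each trial, by values of -0.46 and -0.52 for MT1E and -0.30 and -0.64 for MT1X. These comparisons share libraries with the others, so that a low or high library enters several of them.

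The difference between the stiff and the soft collagen gel minus that between the IPNs was above 0 for all 4 metallothionein genes, and within both trials. As the collagen gels also differ in collagen density and, by name, rBM, it is not a difference of stiffness effects alone. It was 1.14 ± 0.41 for MT1X with an interval of 0.18 to 2.10, 1.0 ± 0.93 for MT1F, 0.95 ± 0.58 for MT1E and 0.63 ± 0.60 for MT2A. MTF1 stood at -0.07 ± 0.30. No member passed, with an adjusted p of 1 for each, and limma called 0.0% of genes, with 278 at an unadjusted p under 0.05. Without the block MT1X alone of the members had an unadjusted p under 0.05, at 0.0258. With the replicate block 0.015% of genes were called, and the unadjusted and adjusted p were 0.00526 and 0.312 for MT1E and 0.0158 and 0.384 for MT1X. The median over the 5 members was 0.95, beside 0.01 over all genes, and 29.8% of all genes were above 0 within both trials.

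The members also differed between the replicates of a gel. Replicate 2 was lower than replicate 1 in 4 of 4 gels for MT1E and MT1F, in 3 of 4 for MT2A and in 1 of 4 for MT1X, and MTF1 was higher in replicate 2 in 4 of 4. For MT1E the log2 difference of replicate 2 from replicate 1 was -0.41 in soft IPN, -0.86 in stiff IPN, -0.48 in soft col:rBM and -1.0 in stiff col. For MT2A it was 0.20, -0.87, -0.44 and -1.02 in the same order. MT1F fell short of replicate 1 most in the collagen gels, at -1.44 in soft col:rBM and -1.73 in stiff col, against -0.07 and -0.18 in the IPNs. For MT1X the differences were 0.47 in soft IPN, 0.01 in stiff IPN, 0.13 in soft col:rBM and -0.77 in stiff col. For MTF1 they lay between 0.06 and 0.39. Over all genes tested the median of this difference was between -0.01 and 0.00 in each gel.

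**Figure D5:**
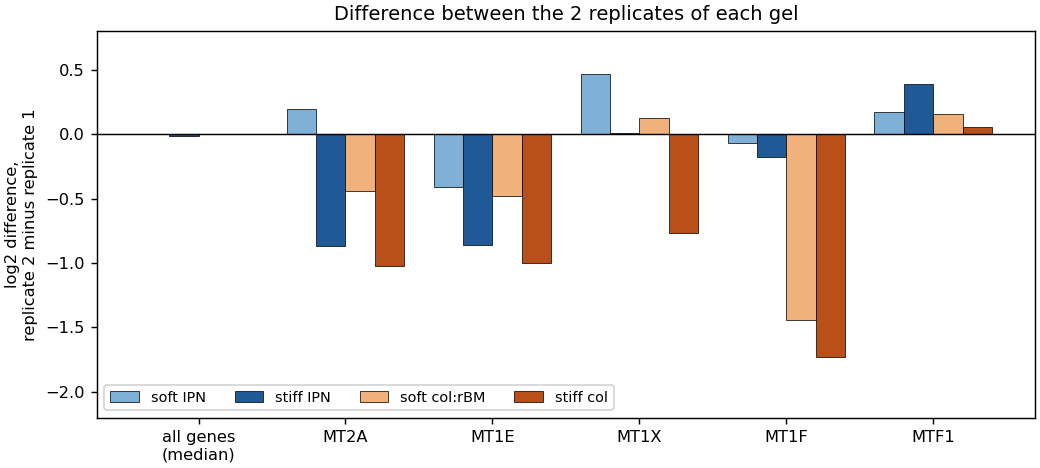
Log2 difference of replicate 2 minus replicate 1 in each gel (bars, 4 per gene) for the median of all genes tested and for the 5 tested members. MT1E and MT1F lie below 0 in 4 of 4 gels and MTF1 above 0 in 4 of 4, while the medians over all genes lie within 0.01 of 0.

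Levels of the metallothionein genes correlated over the 8 libraries, which share their gels and trials. All 4 genes were highest in stiff col replicate 1, and r without that library was not computed. MT1X was higher in replicate 2 in 3 of 4 gels, whereas MT1E and MT1F were lower in 4 of 4. As a description, Pearson's r of log2 levels was 0.87 between MT1E and MT2A, 0.82 between MT1F and MT2A, 0.73 between MT1E and MT1F, 0.68 between MT1X and MT2A, 0.63 between MT1F and MT1X, and 0.58 between MT1E and MT1X. MTF1 had r values of -0.05 to -0.41 with the 4 genes. Among the 13365 other genes tested, those most like the mean of MT1E, MT1F, MT1X and MT2A over the 8 libraries were PDIA6 (r = 0.977), NOS1AP (0.956), DRAP1 (0.955), KRBA2 (0.949) and LOC400043 (0.945). PDIA6, a protein disulfide isomerase of the endoplasmic reticulum, ranged from 4628 to 6498 normalized counts and was highest in stiff col replicate 1, as the metallothionein genes were. NOS1AP and KRBA2 stayed under 20 normalized counts. In all, 345 genes had an r over 0.8.

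SLC30A1, the zinc exporter that MTF1 is known to activate, had r = -0.02 with the mean of the metallothionein genes, with gels and replicates pooled. It had 507 and 536 normalized counts in soft IPN, 475 and 480 in stiff IPN, 514 and 709 in soft col:rBM, and 632 and 753 in stiff col. Both stiff col libraries lay above both libraries of either IPN. Its log2 difference between stiff col and stiff IPN was 0.53 ± 0.22 (adjusted p = 0.775 and, with the block, 0.136). Of 10 zinc exporters 6 were tested and none was called by limma in any of the 5 comparisons, with or without the block, although 1 had an unadjusted p under 0.05 between stiff col and stiff IPN without the block and 2 with it, beside 6.27% and 18.9% of all genes. Their median difference between stiff col and stiff IPN was 0.33, with 6 of 6 above 0.

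Of 14 zinc importers 11 were tested, and limma without the block called none. At most 1 had an unadjusted p under 0.05 in a comparison, beside 1.05% to 9.31% of all genes. Between stiff IPN and soft IPN 3 had an unadjusted p under 0.05 with the block, beside 24.7% of all genes. With the block 1 was called, between stiff IPN and soft IPN, beside 3.82% of all genes. This was SLC39A4, an importer of dietary zinc known from the gut. SLC39A4 had 424 and 376 normalized counts in soft IPN, 218 and 235 in stiff IPN, 320 and 326 in soft col:rBM, and 299 and 311 in stiff col. It fell by 0.82 ± 0.17 (SE, log2) in stiff IPN with the block and an adjusted p of 0.0412, against 0.491 without the block. Without any of the 8 libraries in turn its difference was between -0.90 and -0.73, in fits without the block. All 10 genes of copper uptake, export and delivery were tested, including SLC31A1, ATP7A and SOD1, and limma called none with or without the block. Between stiff col and stiff IPN, 2 of them had an unadjusted p under 0.05 without the block and 5 with it, beside 6.27% and 18.9% of all genes.

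Of 10 oxidative response genes, targets and regulators of NRF2, all were tested. Between stiff IPN and soft IPN 3 were called with the block, beside 3.82% of all genes. NQO1, a quinone reductase, had 3291 and 3662 normalized counts in soft IPN and 5726 and 7963 in stiff IPN, and rose by 0.96 ± 0.15 (adjusted p = 0.0262). GCLM, a subunit of the enzyme that starts glutathione synthesis, rose by 1.01 ± 0.19 (0.0373), and TXNRD1, thioredoxin reductase, rose by 0.80 ± 0.17 (0.0479). Without the block all 3 had an adjusted p of 0.491. The list's median was 0.78 with 9 of 10 above 0, beside -0.42 for the 4 metallothionein genes and -0.01 for all genes. With the block the 3 called oxidative response genes were thus higher in stiff IPN. MT2A, MT1X and MT1F had their lowest mean there, but none of them was called. MT2A had 30385 and 16592 normalized counts in stiff IPN, and without stiff IPN replicate 2 its difference from soft IPN was 0.20. A link between these sets was not tested. Between stiff col and soft col:rBM both sets had medians above 0, at 0.38 for the oxidative response list (8 of 10 above 0) and 0.47 for the metallothionein genes. There GCLM stood at 0.67 ± 0.24, TXNRD1 at 0.58 ± 0.22 and NQO1 at 0.54 ± 0.27, each with an adjusted p of 1. When the 4 collagen libraries alone were fitted with the block (chosen after seeing the data), their adjusted p values were 0.00175, 0.000273 and 0.00031. That fit called 7.07% of all genes.

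Of 13 glucocorticoid response genes 12 were tested, with NR3C1, the glucocorticoid receptor, at 1395 to 2546 normalized counts and called in no comparison. With the block 3 were called between stiff IPN and soft IPN, beside 3.82% of all genes. Without it none was called, with 2 at an unadjusted p under 0.05, beside 9.31% of all genes. Between stiff col and stiff IPN, 5 had an unadjusted p under 0.05 without the block and 6 with it, beside 6.27% and 18.9% of all genes. ZBTB16, a zinc finger repressor that glucocorticoids induce, had 464 and 263 normalized counts in soft IPN, 178 and 100 in stiff IPN, 365 and 243 in soft col:rBM, and 626 and 281 in stiff col. With the block it fell by 1.38 ± 0.19 in stiff IPN (adjusted p = 0.0207) and rose by 1.64 ± 0.19 in stiff col over stiff IPN (0.00861). ZBTB16 was the only list member called there, beside 2.47% of all genes. ERRFI1, an inhibitor of the EGF receptor, fell by 1.13 ± 0.24 (0.0458) and DUSP1, a MAP kinase phosphatase, fell by 0.76 ± 0.17 (0.0489). Without the block the adjusted p was 0.499 for ZBTB16, 0.493 for ERRFI1 and 0.532 for DUSP1 between the IPNs. Without stiff IPN replicate 2 the fall of ERRFI1 was -0.67, and without stiff col replicate 1 the rise of ZBTB16 over stiff IPN was 1.07, both in fits without the block. The list's median was -0.37 for stiff IPN minus soft IPN and 0.49 for stiff col minus stiff IPN, beside -0.42 and 0.59 for the 4 metallothionein genes. For stiff col minus soft col:rBM it was 0.09, with 7 above 0 and 5 below, beside 0.47, and for soft col:rBM minus soft IPN it was -0.15 beside -0.34. Immediate early genes, which also respond to handling of cells, summed to 5821 and 9186 at the lowest and highest in soft IPN, 3985 and 5814 in stiff IPN, 4614 and 9985 in soft col:rBM, and 4246 and 7344 in stiff col. Their part in these values was not tested.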

How the data were processed

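RNA-seq of 8 libraries (4 gels, 2 replicates each) was analysed, with groups taken from the sample labels and all 8 value columns used. Reads had been trimmed and aligned to hg19 by the authors, who dropped those that were unmapped, of low quality or mapped to several places and summed the others over genes with HTSeq. Their processing notes also name Trim Galore 0.3.3, TopHat2 2.0.13, SAMtools 1.1, DESeq2 and R 3.2.0, whereas the paper's methods name Bowtie2 as the aligner. The deposited values are a signal made by the authors by dividing the counts by 1 factor per library and rounding, here called normalized counts. The factors were estimated from the steps between the values.

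Members and gene lists were chosen with earlier results of these data known. The genes named were the members, the other metallothionein genes, SLC30A1, NR3C1, at most 3 called members of each list with the largest change, and the 5 genes most correlated with the mean of the tested metallothionein genes. Genes with at least 10 normalized counts in at least 2 libraries (13369) were fitted as log2(value + 1) with 1 mean per gel in limma 3.58.1 under R 4.3.3 (statmod 1.5.0), with a variance trend, robust moderation and Benjamini-Hochberg adjustment. The pseudocount understates changes of low genes. The fit was tested on simulated data. The differences between replicates 2 and 1 correlated across genes in each of the 6 pairs of gels (r = 0.28 to 0.82), and the methods describe independent trials, so the replicate numbers were taken to pair the libraries. Alternatives were 3 rescalings, other filters and pseudocounts, the replicate block without and with a length and GC correction, fits of the compared gels only, no trend, and leaving out each library. Positions and main transcript lengths came from GENCODE 44 lifted to hg19, in which 23010 of 25369 symbols were found, and promoters from RefSeq. Summaries and plots used Python 3.11.15, pandas 2.3.3, numpy 2.4.6, scipy 1.17.1 and matplotlib 3.10.9.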

Additional observations from a re-analysis of the deposited data

Results flagged for a closer look

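MT1X was picked out because its libraries moved in opposite directions from the soft to the stiff gel in the 2 gel systems. In the collagen pair stiffness cannot be told apart from denser collagen and the lack of rBM taken from the name of stiff col. Both stiff IPN libraries (405 and 407 normalized counts) lay below both soft IPN libraries (520 and 720), and both stiff col libraries (846 and 496) lay above both soft col:rBM libraries (423 and 462). The difference between the 2 changes was 1.14 ± 0.41 on the log2 scale (SE, 8 libraries), with an unadjusted p of 0.0258 and an adjusted p of 1 in limma, so it did not pass the threshold over all genes. With the replicate block the adjusted p was 0.384. Of the 50-base stretches of the MT1X transcript, 51.0% also occur in other annotated transcripts, and their part in the values was not tested. Of these 181 stretches, 117 occur in the record ENSG00000259827, whose overlap with MT1X on the genome was not examined.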

How the results depend on the processing

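The log2 differences of the 5 tested members in 5 comparisons were refitted 490 times, and 1 refit passed the threshold, that of MT1E between stiff col and soft col:rBM with the collagen gels alone and the replicate block (0.78, an alternative chosen after seeing the data), which is also the 1 member called there. In 17 refits a member's difference took the opposite sign, none of them past the threshold. Outside the fits without a library this was MTF1 between soft col:rBM and soft IPN, at -0.03 with the replicate block with length and GC correction. Without 1 library in turn, the difference between stiff IPN and soft IPN ranged from -0.61 to 0.25 for MT1E and from -0.68 to 0.20 for MT2A, with each highest value without stiff IPN replicate 2. Between stiff col and stiff IPN it ranged from -0.04 to 0.96 for MT1E, from -0.09 to 1.64 for MT1F and from -0.25 to 0.14 for MTF1. Between stiff col and soft col:rBM it ranged from -0.47 to 1.26 for MT1F and from -0.12 to 0.90 for MT2A, with each lowest value without stiff col replicate 1. Between soft col:rBM and soft IPN it ranged from -0.94 to 0.50 for MT1F, from -0.34 to 0.10 for MT2A and from -0.07 to 0.10 for MTF1. The difference of stiffness effects (collagen gels minus IPNs, with collagen density and, by name, rBM also changed in the former) ranged from -0.27 to 0.13 for MTF1. The cause of these changes was not tested beyond the library left out.

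Over all genes, limma called 0 in each comparison without the block. With the replicate block it called 511 for stiff IPN and soft IPN, 330 for stiff col and stiff IPN, 3 for soft col:rBM and soft IPN, 2 for the difference in stiffness effects and 211 for any difference among the gels. With length and GC correction as well, these were 745, 461, 5, 2 and 257, with 2 for stiff col and soft col:rBM. With the replicate block and only the gels compared, a choice made after seeing the data, 312, 261, 945 and 45 genes were called in stiff IPN and soft IPN, stiff col and stiff IPN, stiff col and soft col:rBM, and soft col:rBM and soft IPN. Without the block, only the gels compared gave 2 genes for stiff IPN and soft IPN, and a pseudocount of 5 gave 4 for stiff col and stiff IPN. Without a library that count was 0 to 5, and it was 5 without stiff col replicate 2. The block changed no other call of a member. The share of promoters with a metal response element core was 29.6%, or 24.8% when only the 250 bases before the start were searched. With 2 libraries per gel, the 95% intervals of the members without the block included 0, except for MT1X in the difference of stiffness effects. With the block those of MT1E did not include 0 in stiff col minus stiff IPN (0.05 to 0.87), stiff col minus soft col:rBM (0.37 to 1.19), soft col:rBM minus soft IPN (-0.90 to -0.08) and the difference of stiffness effects (0.37 to 1.53), nor did those of MT1X in stiff col minus stiff IPN (0.06 to 1.28) and the difference of stiffness effects (0.28 to 2.0). At this depth MT1G and MT1M were below the limit of detection.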
